A study of Mus musculus with 8 samples.

Results

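The comparison described here set the house dust mite (HDM) treated STAT3-cKO mice against the untreated wild type, and so joined the far corners of a design with 2 genotypes and 2 treatments. Its members were 4 of the 8 RNA-seq libraries of the series, taken as the pair of groups with the best agreement between replicates. All libraries came from airway epithelial cells sorted by FACS from the lungs of C57BL/6 mice, with 2 libraries in each of 4 groups. The STAT3-cKO HDM group (below, cKO HDM) carried a conditional knockout of Stat3 and received HDM, and the STAT3-WT PBS group (WT PBS) was wild type and received phosphate-buffered saline. The other groups, STAT3-WT HDM (WT HDM) and STAT3-cKO PBS (cKO PBS), entered only the estimate of the spread between replicates and descriptions of levels. The Cre driver and cell type of the knockout, the sort markers, the HDM schedule, age and sex were not stated in the sources used here. The table lists 25124 genes, and the 7512 whose mean across the 8 libraries reached 10 normalized counts were tested. Genotype and treatment both differed between cKO HDM and WT PBS, so their contributions cannot be told apart in this contrast.

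House dust mite extract is an inhaled allergen that drives type 2 inflammation, in which interleukin 4 and interleukin 13 act on the airway epithelium, largely through the transcription factor STAT6, and turn secretory cells towards a mucous state. STAT3 is a related transcription factor that carries signals of the interleukin 6 family and others, and it regulates survival, repair and acute-phase genes in epithelia. Untreated airway epithelium consists mainly of club and ciliated cells, and the neighbouring alveolar surface holds type 2 cells that make surfactant from newly synthesised lipid.

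The 4 libraries compared held between 411098 and 510931 reads in genes, and all 8 between 232556 and 593200. Pearson's r between replicates, across the log2 values of the genes tested, was 0.766 in cKO HDM and 0.771 in WT PBS, against 0.679 in WT HDM and 0.560 in cKO PBS. Correlations between a cKO HDM and a WT PBS library ran from 0.731 to 0.766, close to the values within the groups. On the first principal component, which held 30.8% of the variance, the 4 libraries lay between -4.45 and -1.85, while WT HDM replicate 2 stood at -63.4 and cKO PBS replicate 1 at 93.7. The labels do not say that replicates came from separate mice, so the p-values measure only how far these libraries spread, and part of that spread may be technical.

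Few genes separated HDM-treated cKO cells from untreated wild-type cells. Chil4, Clca1, Fn1, Retnla, Chia1 and Fcgbp, in order of the size of the difference, were higher in cKO HDM, and Scd1 alone was lower, by limma at an adjusted p under 0.05. All but Fn1 of the 6 higher genes belong to the mucous and chitinase-like response to type 2 cytokines. The 6 higher genes were 0.0799% of the 7512 tested and the 1 lower gene 0.0133%, together 7 genes or 0.0932%. At an unadjusted p under 0.05, 115 genes were higher (1.53%) and 110 lower (1.46%). The counts given for each gene list below are to be set against these shares over all genes. Both cKO HDM libraries lay above both WT PBS libraries for 1322 genes (17.6%) and below both for 1315 (17.5%). The median log2 difference over all genes was 0.00, with 3756 of 7512 above 0.

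The spread between the libraries set how small a difference the contrast could resolve. For the 5709 genes with a mean of 10 to 50 normalized counts, the median half-width of the 95% interval was 1.64 on the log2 scale, or 3.11-fold, and 0 genes passed limma's adjusted threshold, with 114 at an unadjusted p under 0.05. For the 1629 genes between 50 and 200 counts the half-width was 0.85, or 1.81-fold, and 3 passed. For the 174 genes at 200 counts or more it was 0.54, or 1.46-fold, and 4 passed. A gene of modest level therefore had to differ several-fold to be called, and its failure to pass does not show that its level was equal in the 2 groups. A count-based test of the recovered reads gave similar totals in edgeR, with 6 higher (0.0799%) and 1 lower (0.0133%), the same 7 genes as limma, so edgeR added no call in any gene list below. DESeq2 gave 13 higher (0.173%) and 2 lower (0.0266%), and its further calls are named beside the lists that hold them.

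**Figure D1:**
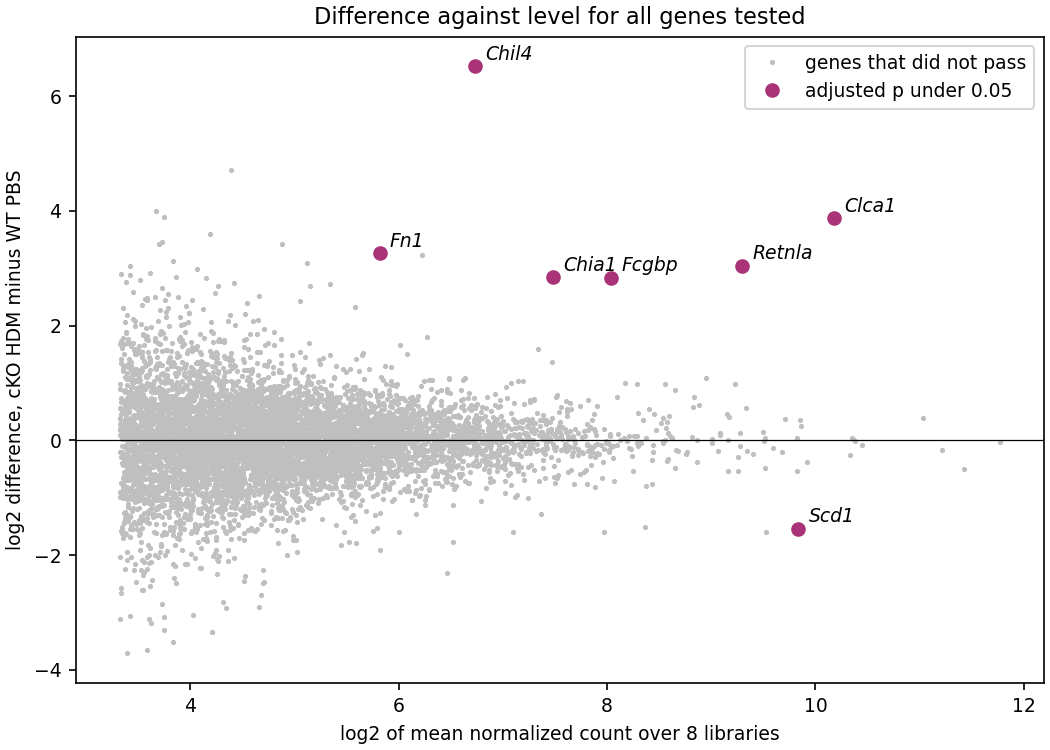
Log2 difference of cKO HDM minus WT PBS (vertical axis) against the log2 of the mean normalized count over the 8 libraries (horizontal axis) for the 7512 genes tested, 1 point a gene. The 7 genes that passed are purple and named, and the grey cloud narrows as the level rises.

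Most calls were lost when 1 library of cKO HDM, WT PBS or WT HDM was left out, and a group reduced to a lone library was assumed to vary like the other groups. The count of higher genes fell to 0 without cKO HDM replicate 2 and without WT PBS replicate 2. It was 2 without cKO HDM replicate 1 (Clca1 and Fcgbp) and 1 without WT PBS replicate 1 (Clca1). It was 1 without WT HDM replicate 1 (Clca1) and 3 without WT HDM replicate 2 (Chil4, Clca1 and Retnla), and it was 8 and 7 without cKO PBS replicate 1 or 2. Scd1 passed without either cKO PBS library and in no other of these 8 fits. The direction of all 7 genes was the same in each of the 8 fits.

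Clca1, which encodes a secreted regulator of chloride channels made by goblet cells (GRCm38 chr3:145003817-145032776, protein coding), had the smallest p-value. It stood at 1565 and 3287 normalized counts in the cKO HDM libraries and at 230.4 and 102 in the WT PBS libraries. The groups did not overlap, and the lower cKO HDM library was several times the higher WT PBS library. The difference was 3.88 ± 0.46 (SE, n = 2 and 2) on the log2 scale, 14.7-fold, with a 95% interval of 2.91 to 4.85 and limma adjusted p = 0.00280. The means were 2426 ± 1218 and 166 ± 90.9 (SD, n = 2 each). Clca1 stood at 1884 and 1104 in WT HDM and at 283 and 784 in cKO PBS, so the cKO PBS libraries lay between those of the untreated wild type and the HDM groups. Its limma adjusted p was 0.0593 without cKO HDM replicate 2 and 0.152 without WT PBS replicate 2.

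Chil4 (chr3:106201490-106219507) and Chia1 (chr3:106113229-106132120) lie in one cluster of chitinase genes. Chia1 encodes acidic mammalian chitinase, which cleaves chitin, and Chil4 a chitinase-like protein that binds chitin without cleaving it. Chil4 stood at 189 and 434 normalized counts in cKO HDM and at 0.765 and 4.55 in WT PBS, the latter being 1 and 5 reads. The gene was thus close to undetected in the untreated wild type, where replicate 1 lay below the 3 reads taken as the floor. The log2 difference was 6.52 ± 0.86 (SE), with an interval of 4.69 to 8.36 and limma adjusted p = 0.00552. Because so few reads stood on one side, the size depended on the pseudocount and on single libraries. It ran from 5.30 to 7.35 over the alternative settings, and was 5.70 without WT PBS replicate 1 and 7.35 without WT PBS replicate 2. The limma adjusted p of Chil4 was 0.0527 without WT HDM replicate 1, 0.123 and 0.32 without cKO HDM replicate 1 or 2, and 0.257 and 0.0593 without WT PBS replicate 1 or 2.

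Chia1 stood at 321 and 206 normalized counts in cKO HDM and at 26.8 and 45.5 in WT PBS. The groups did not overlap, and the log2 difference was 2.85 ± 0.44 (SE), 7.19-fold, with limma adjusted p = 0.0165. That adjusted p rose to between 0.0693 and 0.531 when any one of the WT HDM, cKO HDM or WT PBS libraries was left out. Chil3, the closest relative of Chil4, was at 31.9 and 12.5 in cKO HDM and 4.59 and 5.46 in WT PBS, a log2 difference of 1.81 ± 0.85 that did not pass. In WT HDM Chil3 stood at 193 and 370.0, far above either group compared. Of 2763 windows of 50 bases in Chil4 transcripts, 304 also occur in another gene, most often Chil3 and the pseudogene Gm6522. For Chil3 these were 438 of 1629 windows, most often shared with Chil4 and Gm6522. Reads of the 2 genes could thus be assigned to either in part, whereas no window of Chia1 occurs in another gene.

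Retnla (chr16:48842551-48844461) encodes a small secreted protein of the resistin-like family that type 2 cytokines induce in epithelium and macrophages. It stood at 938 and 1119.6 normalized counts in cKO HDM and at 113 and 134 in WT PBS. The replicates lay close together and the groups far apart, with a log2 difference of 3.05 ± 0.41 (SE), 8.27-fold, and limma adjusted p = 0.00552. It passed without WT HDM replicate 2 and without either cKO PBS library, and its adjusted p was 0.0527 to 0.408 when another library was left out. Retnla and the chitinase-like genes are also macrophage products, and the 26 macrophage and dendritic cell markers took 0.0677% and 0.0669% of reads in cKO HDM and 0.0579% and 0.0662% in WT PBS. Of their defining members, Cd68, Siglecf and Adgre1 were at 0 in all 4 libraries. Mrc1 was at 0 and 1.66 in cKO HDM against 3.06 and 0 in WT PBS, and Itgax at 0.726 and 0.831 against 0 and 4.55. Of the 6 members with enough reads to be tested, 5 lay above 0 and the median was 0.31. In WT HDM the macrophage and dendritic cell markers took 0.160% and 0.312% of reads. The part of these cells in the Retnla difference and in the WT HDM level of Chil3 was not tested.

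Promoters are printed for Chil4 and Retnla, which passed, and for Chil3, the relative of Chil4 that did not, because each had an entry in the RefSeq table (GRCm38.p6) and held a motif of the STAT factors. The search covered 2 palindromic motifs, which read alike on both strands: TTCNNNGAA, bound by most STAT factors, and TTCNNNNGAA, the spacing that STAT6 favours. Capitals mark the match, each run is on the strand of its gene, and bases inside the annotated gene were left off. Chil4 is chr3:106219508-106219729, Chil3 chr3:106167565-106167814 (both minus strand) and Retnla chr16:48842359-48842550 (plus strand).
Chil4: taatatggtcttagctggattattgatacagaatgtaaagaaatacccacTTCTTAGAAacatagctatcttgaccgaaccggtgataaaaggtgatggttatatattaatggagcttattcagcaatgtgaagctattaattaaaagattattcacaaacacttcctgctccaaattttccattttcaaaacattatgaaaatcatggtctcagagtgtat
Chil3: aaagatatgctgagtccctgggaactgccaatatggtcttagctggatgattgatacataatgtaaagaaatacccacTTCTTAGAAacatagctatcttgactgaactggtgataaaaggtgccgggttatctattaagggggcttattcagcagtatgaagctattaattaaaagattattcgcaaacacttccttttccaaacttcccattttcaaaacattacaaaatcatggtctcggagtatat
Retnla: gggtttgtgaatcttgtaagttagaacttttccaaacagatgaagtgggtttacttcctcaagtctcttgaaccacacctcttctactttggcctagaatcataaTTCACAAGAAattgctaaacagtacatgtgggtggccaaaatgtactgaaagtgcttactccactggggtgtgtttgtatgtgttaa

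The Chil4 and Chil3 promoters held the same match, TTCTTAGAA, which starts 200 bases before the RefSeq start in Chil4 and 172 before it in Chil3. The RefSeq start lies inside the annotated gene for Chil4 and at its edge for Chil3, so these distances are not counted from like points. Over 221 aligned bases the 2 promoters were identical at 201. Retnla held TTCACAAGAA, starting 145 bases before its RefSeq start, which like that of Chil4 lies inside the annotated gene. No match to either motif lay in the 250 bases before the RefSeq start of Chia1 or Fcgbp. For Chia1 only 97 of these bases lie before the annotated gene, and bases farther upstream were not searched. TTCNNNGAA was found in 7.02% and TTCNNNNGAA in 5.85% of 32851 promoters of that length, and the matches are a description of these sequences and not evidence of binding.

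Fcgbp (chr7:28071236-28120862) encodes a large protein of mucus that binds the Fc part of IgG and links to mucins. It stood at 284 and 895 normalized counts in cKO HDM and at 55.1 and 88.2 in WT PBS. The groups did not overlap, although the cKO HDM libraries differed more from each other than those of WT PBS. The log2 difference was 2.84 ± 0.46 (SE), 7.14-fold, with limma adjusted p = 0.0203. It was 2.01, with limma adjusted p = 0.462, without cKO HDM replicate 2, and 3.66, with 0.0116, without cKO HDM replicate 1. The adjusted p of Fcgbp was 0.0617 to 0.775 without a WT HDM or WT PBS library. Of its 50-base windows 6.42% also occur in other genes.

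Among the 30 genes listed for the type 2 and mucous response, 16 had enough reads to be tested. Of these, 5 passed as higher (Clca1, Chil4, Retnla, Chia1 and Fcgbp), against 0.0799% of all genes tested, and 0 as lower. Of the 16, 13 had a difference above 0, and the median was 1.78 against 0.00 over all genes tested. In 8 of the 16 both cKO HDM libraries lay above both WT PBS libraries, against 17.6% of all genes. The list was chosen with earlier results of these data known, so its direction is not independent evidence. The reads of all 30 genes made up 1.05% and 1.93% of the cKO HDM libraries and 0.358% and 0.284% of the WT PBS libraries.

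Several genes best known from mucous cells did not pass. Muc5ac, the gel-forming mucin of goblet cells, stood at 31.9 and 103 normalized counts in cKO HDM against 26.8 and 1.82 in WT PBS, a log2 difference of 2.73 ± 0.96. The lower cKO HDM library exceeded the higher WT PBS library by little, and the WT PBS libraries were far apart. Muc5b, the mucin of resting airways, stood at 152 and 662 in cKO HDM and 452 and 221 in WT PBS, so the groups overlapped, with a difference of 0.00 ± 0.52. Slc26a4, which encodes the anion exchanger pendrin, stood at 21.8 and 4.98 against 2.30 and 0, a difference of 2.68 ± 1.28. The receptor subunit gene Il13ra1 and the transcription factor gene Stat6 had differences of -0.36 ± 0.34 and -0.26 ± 0.42, which did not pass. Muc5b, Slc26a4, Chil3, Il13ra1 and Stat6 were picked from the list after their values were seen.

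**Figure D2:**
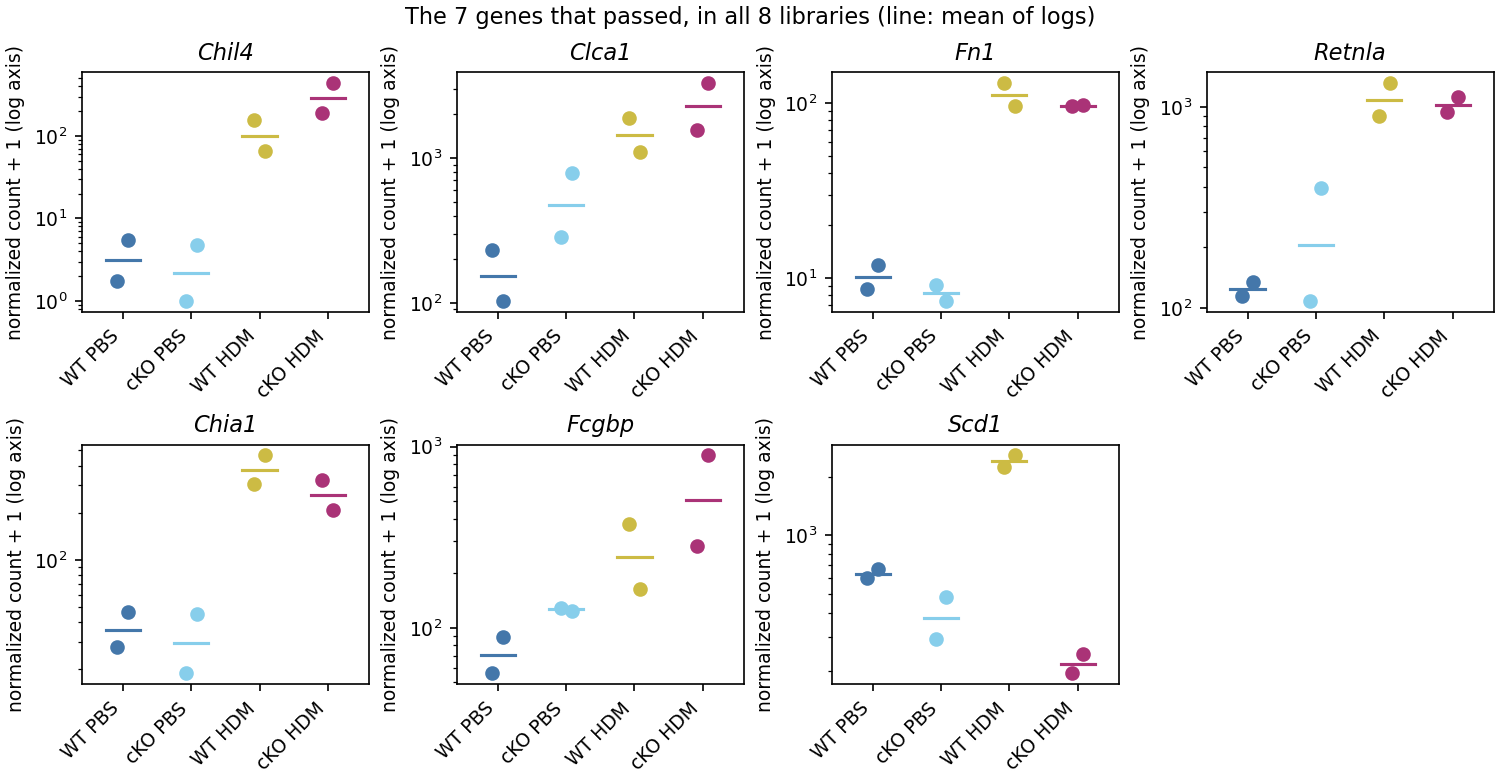
Normalized count plus 1 on a log axis (vertical) for the 7 genes that passed, with 1 panel a gene, 1 point a library, the 4 groups along the horizontal axis and a line at the mean of the logs. For the 6 higher genes both cKO HDM points lie above both WT PBS points, and for Scd1 both lie below.

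Fn1 (chr1:71585520-71653200), which encodes the matrix protein fibronectin, was the only called gene outside the mucous group that was higher. It stood at 95.1 and 97.2 normalized counts in cKO HDM and at 7.65 and 10.9 in WT PBS. The replicates of each group nearly coincided, and the log2 difference was 3.26 ± 0.52 (SE), 9.56-fold, with limma adjusted p = 0.0181. The limma adjusted p of Fn1 was 0.0893 to 0.447 when any one of the WT HDM, cKO HDM or WT PBS libraries was left out. In bulk RNA fewer cells of a type and less RNA per cell cannot be told apart, and Fn1 is also abundant in fibroblasts. The 24 fibroblast and smooth muscle markers took 0.0532% and 0.0555% of reads in cKO HDM and 0.0314% and 0.0457% in WT PBS. Of the 24, 8 were at 0 in each cKO HDM library, and 9 and 10 in WT PBS replicates 1 and 2. Col3a1, a fibrillar collagen, stood at 59.5 and 44.9 against 29.1 and 20.9, a difference of 1.04 ± 0.43, while Col1a1 was at 22.5 and 22.4 against 15.3 and 31.8. Sparc, a matrix-binding glycoprotein, had 27.6 and 34.1 against 14.5 and 5.46. Of the 12 fibroblast markers tested 5 lay below 0, among them Pdgfra (-1.06 ± 1.36), Dcn (-0.95 ± 1.40) and Bgn (-0.70 ± 0.87), which together with Col1a1 were added after their values were seen. The part of these cells in the Fn1 difference was not tested.

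Of 34 listed matrix and remodelling genes 18 were tested. By limma Fn1 passed as higher and 0 passed as lower (2 higher and 0 lower at an unadjusted p under 0.05), 11 of 18 lay above 0, and the median was 0.06. The other gene higher at an unadjusted p under 0.05 was Serpinh1 (2.32 ± 0.48, limma adjusted p = 0.162), whose groups did not overlap. In 5 of 18 both cKO HDM libraries lay above both WT PBS libraries and in 4 below, against 17.6% and 17.5% of all genes. The members other than Fn1 were spread on both sides of 0.

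Scd1 (chr19:44394455-44407879) encodes stearoyl-CoA desaturase, which makes monounsaturated fatty acids and is abundant in alveolar type 2 cells. It stood at 194 and 243 normalized counts in cKO HDM and at 599 and 670.2 in WT PBS. The groups did not overlap, and the log2 difference was -1.54 ± 0.25 (SE), 2.91-fold lower, with an interval of -2.06 to -1.02 and limma adjusted p = 0.0181. Scd1 stood at 2243 and 2569 in WT HDM and at 293 and 481 in cKO PBS, so both cKO groups lay below the untreated wild type and WT HDM far above it. The adjusted p by limma was 0.0801 to 0.602 without any one of the WT HDM, cKO HDM or WT PBS libraries. Of the 50-base windows of Scd1 transcripts 4.56% also occur in other genes, most often Scd3 and Scd2.

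The other fatty acid synthesis genes did not pass limma. Of 25 listed genes 19 were tested, of which 0 passed limma as higher and 1 (Scd1) as lower, with 1 higher and 4 lower at an unadjusted p under 0.05. The median was -0.15, and 8 of 19 had both cKO HDM libraries below both WT PBS libraries, against 17.5% of all genes. In 3 of 19 both lay above, against 17.6% of all genes, and 7 of 19 had a difference above 0. Fasn, the fatty acid synthase, stood at 105 and 109 in cKO HDM and 183 and 193 in WT PBS, a log2 difference of -0.81 ± 0.26 with no overlap. Acsl3 of the same list went the other way (0.76 ± 0.36), also with no overlap. Fasn and Acsl3 were picked after their values were seen. Of the 17 cholesterol synthesis and uptake genes tested, 0 passed limma in either direction (2 lower at an unadjusted p under 0.05) and the median was -0.10. Insig1, which restrains sterol synthesis, stood at 14.5 and 31.6 against 59.7 and 62.7 (-1.47 ± 0.58). For fatty acid oxidation, 0 of 23 tested passed limma, 0 of them at an unadjusted p under 0.05 either, and the median was -0.09, with Acaa2, a thiolase, at 0.71 ± 0.37 and Ech1, an enoyl-CoA isomerase, at -0.71 ± 0.49.

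The next genes by p-value on the lower side did not pass limma's adjusted threshold. Slc43a2, a transporter of neutral amino acids, stood at 35.6 and 44.0 normalized counts in cKO HDM against 144 and 133 in WT PBS, a log2 difference of -1.78 ± 0.34 with limma adjusted p = 0.0868. It passed in 7 of 21 alternative fits. Depp1, a gene induced by FOXO factors, stood at 14.5 and 27.4 against 79.6 and 75.5 (-1.90 ± 0.46, limma adjusted p = 0.46). Lpcat1, which builds the main surfactant phospholipid, stood at 37.7 and 91.4 against 146 and 142 (-1.28 ± 0.36, limma adjusted p = 1.00). For all 3 the WT PBS libraries nearly coincided and both cKO HDM libraries lay below them.

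The leading cell type markers of the sorted population did not pass, and for the abundant ones the intervals were narrow. Scgb1a1, the main secretory protein of club cells, stood at 1589 and 2189 normalized counts in cKO HDM against 2161 and 2026 in WT PBS, a log2 difference of -0.17 ± 0.24 with an interval of -0.67 to 0.34. Foxj1, the regulator of motile cilia, stood at 809.8 and 682 against 550.4 and 534 (0.45 ± 0.23). Sftpc, surfactant protein C of alveolar type 2 cells, stood at 856 and 801 against 765 and 1289 (-0.26 ± 0.28), so alveolar transcripts were present in cells labelled as airway epithelium. Epcam, an epithelial adhesion molecule, stood at 127 and 99.7 against 123 and 179 (-0.40 ± 0.31). The groups overlapped for Scgb1a1, Sftpc and Epcam, and without single libraries Scgb1a1 moved between -0.40 and 0.065 and Sftpc between -0.64 and 0.11.

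Of 28 club cell markers tested, 1 passed limma as higher (Retnla, which the list shares with the mucous response) and 0 as lower, with 3 higher and 6 lower at an unadjusted p under 0.05 and a median of -0.21. DESeq2 also called Kcnj15 of this list higher and Selenbp1 lower. Cyp2f2, a cytochrome P450 of club cells, stood at 1660.3 and 2454 against 2955 and 2735, a log2 difference of -0.49 ± 0.21. Of 37 ciliated cell markers 0 passed limma (1 higher at an unadjusted p under 0.05), 24 lay above 0 and the median was 0.11, and Cfap53, a protein of the axoneme, had the smallest p with 143 and 164 against 88.8 and 60.0 (1.06 ± 0.37). In WT HDM against WT PBS, which shares the WT PBS libraries with this contrast, the median of the ciliated list was -0.81. Of 26 alveolar type 2 markers 0 passed limma as higher and 1 (Scd1) as lower (2 and 6 at an unadjusted p under 0.05), DESeq2 also called Chil1 higher, 18 lay below 0 and the median was -0.24, while in WT HDM against WT PBS it was 1.43. Reads of the type 2 markers made up 1.86% and 1.99% of the cKO HDM libraries against 1.87% and 2.46% of the WT PBS libraries, and reached 4.66% and 5.95% in WT HDM. Of 13 alveolar type 1 markers 0 passed limma (1 lower at an unadjusted p under 0.05, median -0.17), with Aqp5, a water channel, at 21.8 and 67.3 against 78.8 and 81.8 and Cav1, the caveolae protein, at 18.9 and 15.8 against 25.3 and 46.4. Of 22 epithelial adhesion genes 0 passed limma, 0 of them at an unadjusted p under 0.05 either (median -0.12), and Jup, which encodes plakoglobin, differed by -0.50 ± 0.31.

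Markers of cells that a sort could carry over were low in the 4 libraries. The 24 endothelial markers took 0.0834% and 0.108% of reads in cKO HDM and 0.120% and 0.105% in WT PBS, against 0.449% and 0.463% in WT HDM. Of 18 endothelial genes tested 0 passed limma (1 lower at an unadjusted p under 0.05) and the median was -0.19. Acvrl1, an endothelial receptor kinase, stood at 7.98 and 15.0 against 23.7 and 26.4 (-1.12 ± 0.52), and Kdr, a VEGF receptor, at 33.4 and 22.4 against 42.1 and 52.7 (-0.76 ± 0.43). Of 12 fibroblast genes tested 0 passed limma (1 higher at an unadjusted p under 0.05) and the median was 0.07, against 3.58 in WT HDM minus WT PBS. The 20 lymphocyte markers held 9 and 4 reads in cKO HDM and 0 and 15 in WT PBS, and Cd3e and Cd79a were at 0 in all 4 libraries. Ptprc, the pan-leukocyte antigen CD45, was at 0 in both cKO HDM libraries and at 0 and 3.64 in WT PBS. Of 6 macrophage and dendritic cell genes tested 0 passed limma, 0 of them at an unadjusted p under 0.05 either. Of the 6, 5 lay above 0 and the median was 0.31. Apoe stood at -0.61 ± 0.75 and Ctss, a lysosomal protease with reads in 1 of the 4 libraries, at 1.79 ± 2.28.

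**Figure D3:**
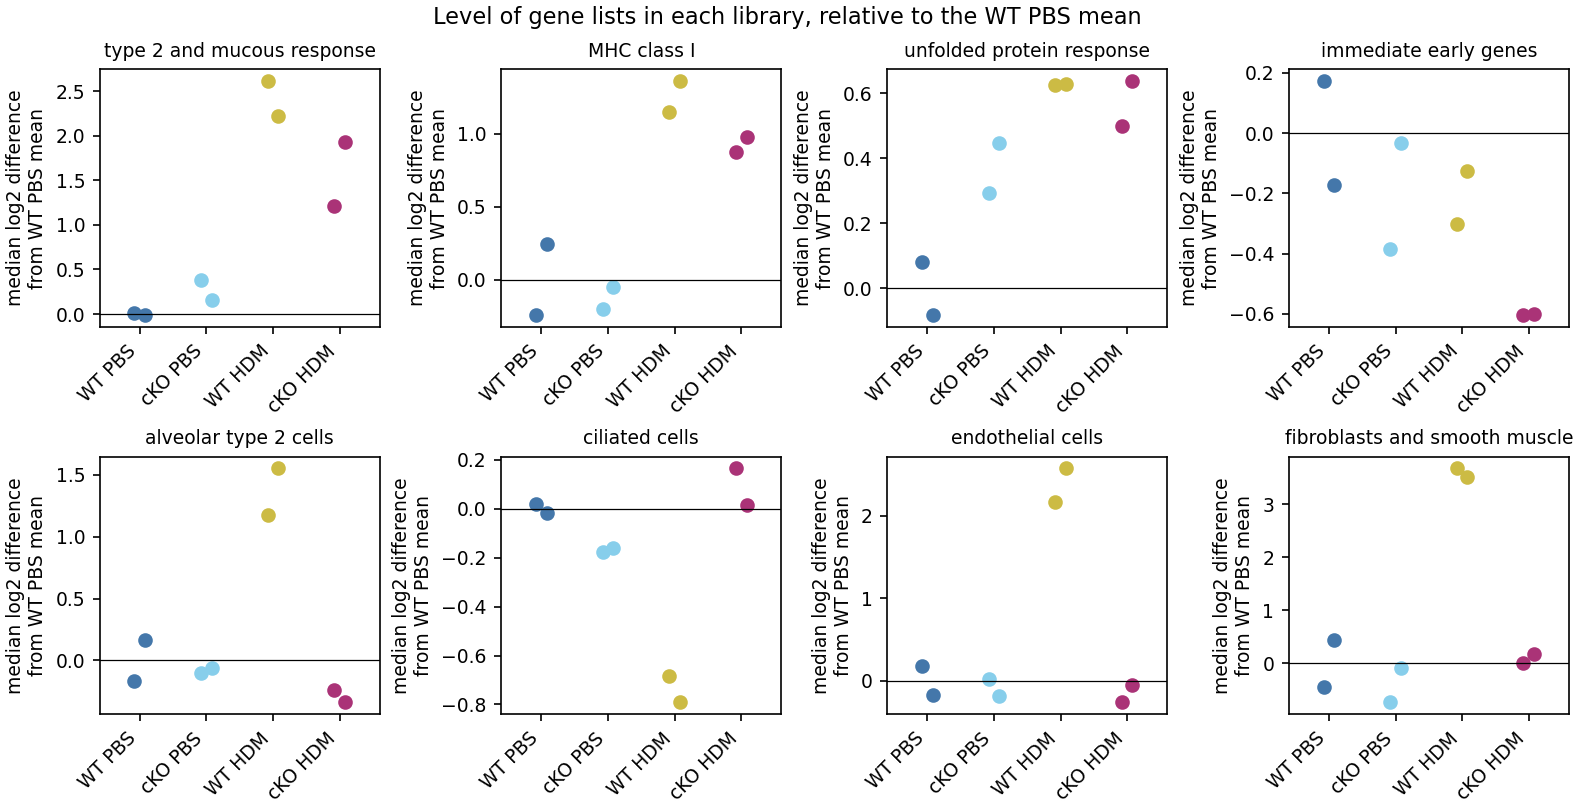
Median log2 difference from the WT PBS mean (vertical axis) over the tested members of 8 gene lists, with 1 panel a list, 1 point a library and the 4 groups along the horizontal axis. The mucous list lies above WT PBS in both HDM groups, and the alveolar type 2, endothelial and fibroblast lists are high in WT HDM while cKO HDM stays near WT PBS.

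Stat3 (chr11:100885098-100939540), the targeted gene, stood at 76.9 and 92.2 normalized counts in cKO HDM against 75.8 and 40.9 in WT PBS, a log2 difference of 0.59 ± 0.39. Its level was not below the wild type, but the sources used here do not give the deleted exons, and a count over the whole gene includes reads outside them, so this value does not check the knockout. Of 24 tested genes among STAT3 targets and feedback regulators 0 passed limma in either direction (3 lower at an unadjusted p under 0.05), 13 lay above 0 and the median was 0.13. Socs3, a feedback inhibitor that STAT3 induces, stood at 31.9 and 30.7 against 27.6 and 1.82 (1.85 ± 0.95), the spread coming from WT PBS replicate 2. Reg3g, a STAT3-induced antibacterial lectin, stood at 18.1 and 154 against 191 and 140.0 (-1.60 ± 0.65), and the groups overlapped. Among 27 tested cytokine receptor and signalling genes 0 passed limma (1 higher at an unadjusted p under 0.05) and the median was -0.02.

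Epithelial alarmin genes showed no called difference. Il33, an alarmin of alveolar type 2 cells, stood at 20.3 and 13.3 normalized counts in cKO HDM against 8.42 and 20.9 in WT PBS, a log2 difference of 0.28 ± 0.66. The groups overlapped, and Il33 reached 104 and 162 in WT HDM. Without single libraries the Il33 difference ran from -0.33 (without WT PBS replicate 1) to 0.89. Tslp was at 0 in all 4 libraries.

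For class I antigen presentation 14 of 18 genes were tested, and all 14 tested lay above 0, with a median of 0.90 against 0.00 over all genes. By limma 0 passed in either direction, with 4 higher at an unadjusted p under 0.05, against 1.53% of all genes. DESeq2 called H2-D1 (adjusted p = 0.0126) and H2-K1 (0.0375) higher. The median of the list was 0.52 without WT PBS replicate 1. H2-K1 and H2-D1, which encode classical class I heavy chains, stood at 481 and 493 and at 492 and 459 in cKO HDM. In WT PBS H2-K1 stood at 188 and 323 and H2-D1 at 229.6 and 292, so neither gene overlapped between the groups, with differences of 0.98 ± 0.29 and 0.87 ± 0.24. In WT HDM they stood at 550.4 and 569.8 and at 571 and 739. Of 15 interferon response genes 0 passed limma (3 higher at an unadjusted p under 0.05), 14 lay above 0 and the median was 0.81, and Iigp1, an interferon-induced GTPase, stood at 47.2 and 31.6 against 0 and 12.7. Of 5 class II genes 0 passed limma, 0 of them at an unadjusted p under 0.05 either, and the median was 0.55 (3.01 in WT HDM minus WT PBS), with Cd74, the invariant chain, at 127 and 93.0 against 66.6 and 81.8 and H2-Eb1 at 27.6 and 12.5 against 3.83 and 9.09. The class II median was -0.78 without WT PBS replicate 1, so 1 library turned its sign.

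Of 21 unfolded protein response genes 0 passed limma (6 higher at an unadjusted p under 0.05, against 1.53% of all genes). Of the 21, 19 lay above 0 and the median was 0.54. DESeq2 called Herpud1 and Hspa5 of this list higher, each with adjusted p = 0.0487. In 13 of 21 both cKO HDM libraries lay above both WT PBS libraries, against 17.6% of all genes. Hspa5, the main chaperone of the endoplasmic reticulum, stood at 493 and 503 against 348 and 251 (0.75 ± 0.23), and Herpud1, a factor of endoplasmic reticulum degradation, at 211 and 179 against 100.3 and 92.8 (1.00 ± 0.29). Both genes were also above WT PBS in cKO PBS, with 409.9 and 417 for Hspa5 and 184 and 157 for Herpud1. Of 15 antimicrobial and acute-phase genes 0 passed limma (3 higher and 3 lower at an unadjusted p under 0.05) and the median was 0.05. DESeq2 called C3 (adjusted p = 0.00160) and Chil1 (0.00130) of this list higher, and over all alternatives C3 passed in 4 of 22 and Chil1 in 3 of 22. Chil1, a chitinase-like protein of alveolar type 2 cells, stood at 506 and 523 against 237 and 284 (0.99 ± 0.23, limma adjusted p = 0.437). C3, the central complement component, stood at 449 and 603 against 286 and 207 (1.09 ± 0.26, limma adjusted p = 0.437). Of 10 complement genes 0 passed limma (2 higher and 1 lower at an unadjusted p under 0.05, median 0.12), C3 being DESeq2's call among them. Serping1, the C1 inhibitor, stood at 9.43 and 9.97 against 0 and 0. Of 11 NF-kB response genes 0 passed limma, 0 of them at an unadjusted p under 0.05 either (median -0.09), with Birc3 at -2.25 ± 1.29 and Nfkbia at -1.52 ± 0.90.

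Immediate early genes, which encode transcription factors induced within minutes of a stimulus, leaned downwards. Of 23 listed 19 were tested, and 0 passed limma in either direction (8 lower at an unadjusted p under 0.05, against 1.46% of all genes). Of the 19, 18 lay below 0 and the median was -0.63 against 0.00 over all genes. In 12 of 19 both cKO HDM libraries lay below both WT PBS libraries, against 17.5% of all genes. Fos stood at 273 and 246 normalized counts in cKO HDM against 516 and 372 in WT PBS (-0.76 ± 0.25). Atf3 stood at 14.5 and 3.32 against 47.5 and 41.8 (-2.48 ± 0.72), and Nr4a1 at 28.3 and 10.8 against 72.7 and 55.5 (-1.80 ± 0.54). For these 3 genes the groups did not overlap. Without WT PBS replicate 2 the median of the list was -0.96, and without WT PBS replicate 1 it was -0.46.

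**Figure D4:**
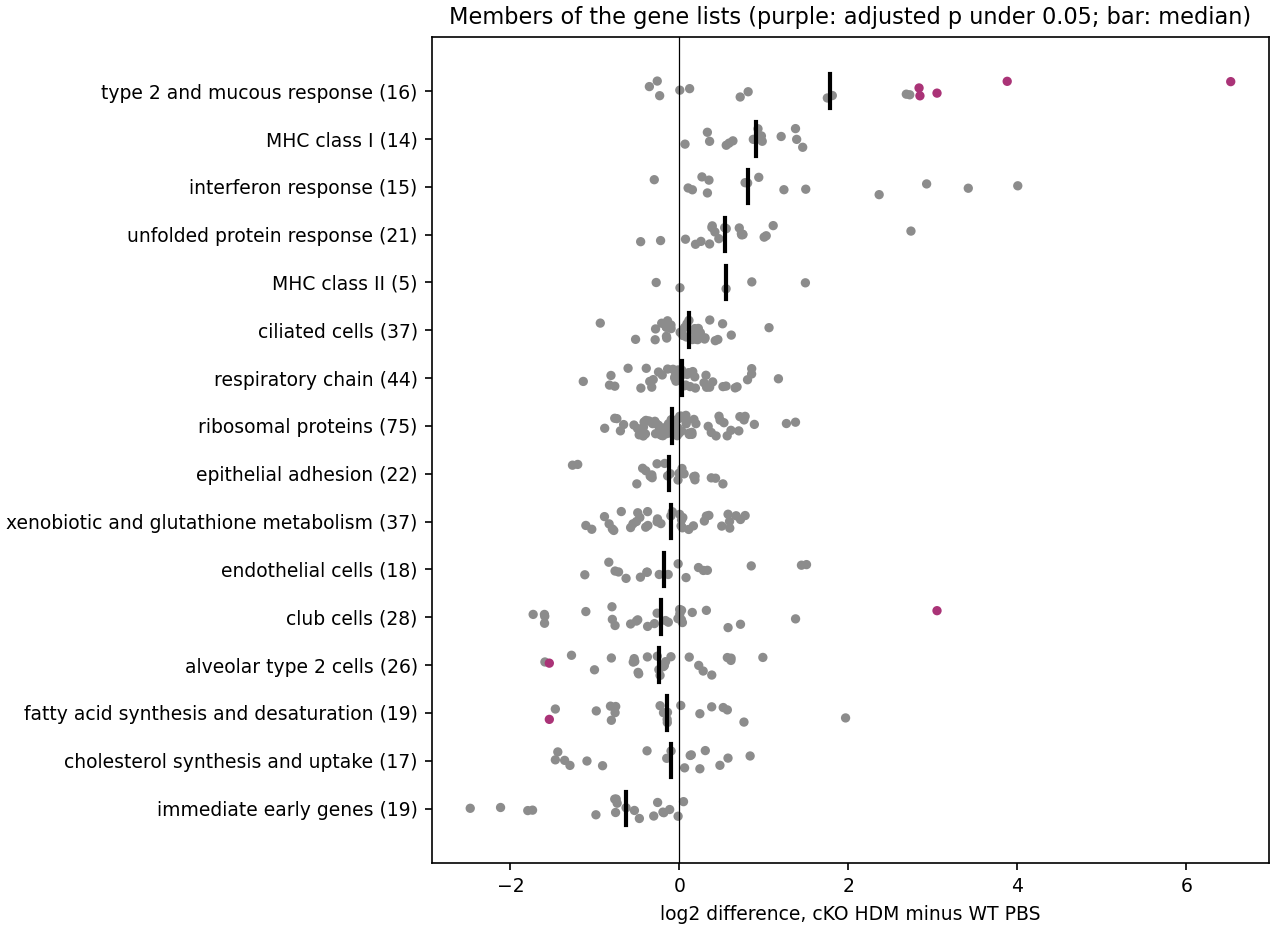
Log2 difference of cKO HDM minus WT PBS (horizontal axis) for each tested member of 16 gene lists, with the number tested in brackets, a black bar at the list median and purple points for genes that passed. The mucous list reaches farthest to the right, the class I list lies wholly above 0, and the immediate early list lies almost wholly below it.

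Other lists stayed near the median of all genes. Of 17 clock genes 0 passed limma (3 higher and 2 lower at an unadjusted p under 0.05) and the median was 0.01, with Npas2, a partner of Bmal1, at 2.18 and 6.64 against 32.9 and 29.1 (-2.70 ± 0.79) and Tef, a clock output factor, at 163 and 115 against 77.3 and 55.5 (1.05 ± 0.39). Of 37 xenobiotic and glutathione genes 0 passed limma (1 higher and 3 lower at an unadjusted p under 0.05, median -0.10), with Cyp2b10 at 228 and 209 against 151 and 115 (0.72 ± 0.30). Of 17 ion and fluid transport genes Clca1 alone passed limma (2 higher and 2 lower at an unadjusted p under 0.05, median -0.09), and DESeq2 also called Kcnj15, a potassium channel, higher. Of 7 cell cycle genes 0 passed limma (1 lower at an unadjusted p under 0.05, median -0.08), and Cdkn1a, an inhibitor of cyclin-dependent kinases, stood at 37.7 and 46.5 against 81.9 and 83.7. By limma 0 of 44 respiratory chain genes passed and 0 were at an unadjusted p under 0.05 (median 0.03), with Atp5b at 0.39 ± 0.23 and Cox6b1 at 0.81 ± 0.58, and likewise 0 of 75 ribosomal protein genes passed limma and 0 were at an unadjusted p under 0.05 (median -0.08), with Rps4x at -0.88 ± 0.44 and Rps16 at 0.71 ± 0.46.

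**Figure D5:**
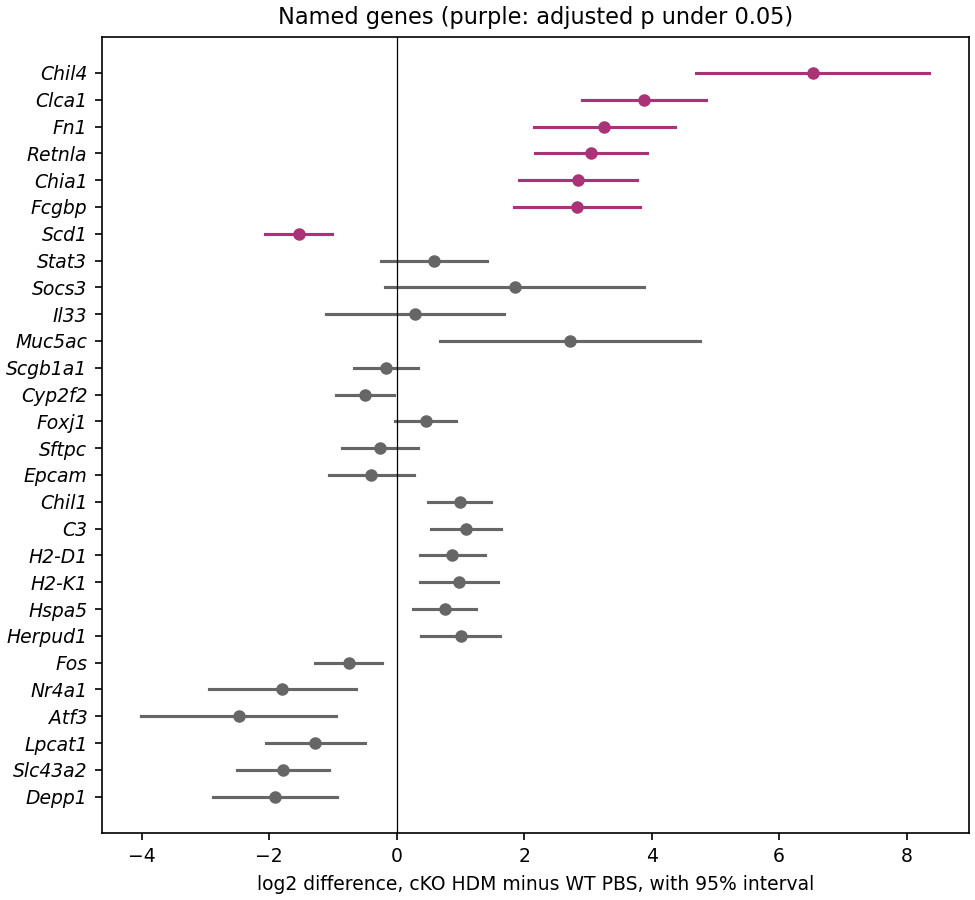
Log2 difference of cKO HDM minus WT PBS (horizontal axis) with its 95% interval from limma for 28 named genes, purple where the adjusted p was under 0.05. The intervals of the 7 called genes lie far from 0, and those of Stat3, Il33, Scgb1a1, Sftpc, Foxj1 and Epcam include it.

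The path from untreated wild type to HDM-treated cKO can be read through either of the other groups. The steps through WT HDM are WT HDM minus WT PBS and cKO HDM minus WT HDM, those through cKO PBS are cKO PBS minus WT PBS and cKO HDM minus cKO PBS, and each step shares libraries with the contrast. Retnla differed by 3.13 and -0.08 through WT HDM and by 0.74 and 2.31 through cKO PBS. Fn1 differed by 3.47 and -0.21, and by -0.31 and 3.57, and Chia1 by 3.39 and -0.55, and by -0.29 and 3.14. For Fn1 and Chia1 the step from PBS to HDM was 3.14 or more in either genotype and the step between genotypes lay between -0.55 and -0.21, while Retnla also had a positive step from WT PBS to cKO PBS. Clca1 differed by 3.23 and 0.65, and by 1.61 and 2.27, Chil4 by 5.01 and 1.52, and by -0.51 and 7.04, and Fcgbp by 1.80 and 1.03, and by 0.84 and 1.99. Scd1 differed by 1.92 and then -3.46 through WT HDM, and by -0.75 and -0.79 through cKO PBS, so its values went up and then down on one path and down at both steps on the other.

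Over all genes the contrast was the closest of these 5 by size. The median absolute log2 difference was 0.38, against 0.50 for WT HDM minus WT PBS, 0.52 for cKO HDM minus WT HDM, 0.50 for cKO PBS minus WT PBS and 0.51 for cKO HDM minus cKO PBS. At an unadjusted p under 0.05 limma gave 225 genes here and 671, 721, 523 and 584 in the others. The 2 groups were also those with the best replicate agreement, which was the reason for their choice, so the smaller differences cannot be told apart from the lower spread of these libraries.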

How the data were processed

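RNA-seq of sorted airway epithelial cells was available as 1 table of 8 libraries. Per the submitters' processing notes, HOMER and DESeq2 were used with the mm10 build; the sources used here do not give the aligner, annotation or strand setting, so overlapping and antisense genes may share reads. The deposited signal values were read counts that the authors divided by 1 size factor per library: divided by the value of 1 read, 100% were whole within 0.01 reads. Libraries held 232556 to 593200 reads, and intervals of read shares (exact binomial, 95%) and floors of 3 reads cover counting error only. Groups came from the sample labels. The values were analysed as log2(value + 1) for genes with a mean of at least 10. All 4 groups were fitted together with limma 3.58.1 in R 4.3.3 (empirical Bayes with a trend, two-sided, Benjamini-Hochberg over 7512 genes, threshold 0.05), leaving 4 residual degrees of freedom. A fold change is on the log2(value + 1) scale and understates low genes. The code was tested on simulated data. Alternatives were pseudocounts 0.2 and 5, other filters, normalizations and variance settings, a replicate block, edgeR 4.0.16 and DESeq2 1.42.0 on the recovered reads, and each library left out.

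The genes named were up to 12 called in each direction, filled to 4 by p-value where fewer passed, up to 4 called or otherwise 2 leading members of each gene list with at least 5 tested members, and 11 genes named throughout (Epcam, Foxj1, Sftpc, Scgb1a1, Ptprc, Stat3, Socs3, Il33, Tslp, Clca1 and Muc5ac). The groups and lists were chosen with earlier results of these data known. Basal cell (2 tested), granulocyte (1), erythroid (3) and sex-linked (1) lists were too small to describe, and 0 of their members passed. Some genes that this rule names are not reported here. Positions are from GENCODE M21 on GRCm38.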

Additional observations from a re-analysis of the deposited data

Results flagged for a closer look

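Scd1 stands out because its response to HDM differed between the genotypes by a test of the difference itself. The response in cKO minus that in wild type was -2.71 ± 0.35 (SE) on the log2 scale, with limma adjusted p = 0.00828 for the interaction over all genes tested. In the wild type Scd1 stood at 599 and 670.2 normalized counts with PBS and 2243 and 2569 with HDM, and in the cKO at 293 and 481 with PBS and 194 and 243 with HDM. Both WT HDM libraries lay above both WT PBS libraries, and both cKO HDM libraries lay below both cKO PBS libraries. Of the 59 named genes 1 passed this test, while over all 7512 genes tested 0 passed with a positive and 2 with a negative difference. Many of the named genes were picked by their p-value in the main contrast, which shares the cKO HDM and WT PBS libraries with this test. The alveolar type 2 markers, among which Scd1 is counted, made up 4.66% and 5.95% of the reads of WT HDM and 1.86% and 1.99% of those of cKO HDM, and their part in the difference was not tested.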

How the results depend on the processing

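Against 6 genes called higher and 1 lower, the counts were 0 and 0 with a pseudocount of 0.2, with no filter on low values and with no trend in the variance. They were 7 and 2 with a pseudocount of 5 and with quantile normalization, 9 and 2 with a minimum mean of 50, 3 and 1 with robust variances, 12 and 3 with library weights, 13 and 2 with only the 2 groups compared, and 13 and 2 with DESeq2. Size factors by the median of ratios and edgeR with either normalization gave 6 and 1. With 1 library left out, the counts ran from 0 to 8 higher and from 0 to 4 lower. The 4 lower genes without cKO HDM replicate 2 were Bpifa1, Ltf, Reg3g and Scgb3a1, and the 2 without either cKO PBS library were Scd1 and Slc43a2. Without cKO HDM replicate 1, either WT PBS library or either WT HDM library the count of lower genes was 0. The causes were not tested.

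No pairing by replicate number was seen: the deviations of same-numbered libraries of the 2 groups correlated across genes at -0.0049. Whether same-numbered libraries shared a batch cannot be told from this value. With the replicate block the counts were 6 and 1, the same 7 genes.

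By limma or the alternative tools the 7 called genes kept their direction in all alternatives run. Clca1 passed in 16 of 22, Chil4 in 13 of 21, Fn1 in 11 of 21, and Retnla, Chia1, Fcgbp and Scd1 each in 13 of 22. DESeq2 gave no adjusted p for Chil4 and Fn1. Among the genes of the naming rule that were not called, 5 lost or changed their sign with 1 library left out. Genes outside that rule were not followed in this way. Apoe ran from -1.62 to 0.39 (above 0 without WT PBS replicate 2), Ctss from 0 to 3.57 (0 without cKO HDM replicate 1) and Il33 from -0.33 to 0.89 (below 0 without WT PBS replicate 1 or cKO HDM replicate 1). Scgb1a1 ran from -0.40 to 0.065 (above 0 without cKO HDM replicate 1) and Sftpc from -0.64 to 0.11 (above 0 without WT PBS replicate 2). Medians of the mucous list ran from 0.77 with no filter to 2.32 with a minimum mean of 50, those of the class I list from 0.52 to 0.98, of the unfolded protein response from 0.42 to 0.66 and of the immediate early genes from -0.96 to -0.46. Medians of the club cells (-0.44 to 0.02), class II genes (-0.78 to 0.79) and fibroblast markers (-0.38 to 0.57) changed sign with single libraries. So did those of the STAT3 target (-0.12 to 0.13), alveolar type 1 (-0.26 to 0.14), NF-kB (-0.52 to 0.20) and macrophage (-0.07 to 0.63) lists. The matrix, ion transport, complement, antimicrobial, clock, cytokine receptor and respiratory chain medians also lay on both sides of 0 with single libraries left out. Among genes under 50 normalized counts 0 of 5709 passed limma, with 114 at an unadjusted p under 0.05.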

Other observations

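The genes below fall outside the naming rule and were chosen after their values were seen. Hsph1, a co-chaperone of the HSP110 family, stood at 363 and 212 normalized counts in cKO HDM and 76.5 and 110.0 in WT PBS, a log2 difference of 1.58 ± 0.39 (limma adjusted p = 0.492). Hspa8, the constitutive HSP70, stood at 399.8 and 339 against 204 and 166 (0.99 ± 0.24, limma adjusted p = 0.492). Neither passed limma, and DESeq2 called both higher. Fer1l6, a ferlin of membrane traffic, stood at 66.0 and 258 against 18.4 and 9.09 (3.24 ± 0.67, limma adjusted p = 0.162). Serpinh1, the collagen chaperone HSP47 and a member of the matrix list, stood at 95.1 and 53.2 against 15.3 and 11.8 (2.32 ± 0.48, limma adjusted p = 0.162).

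Some genes differed widely between the 2 cKO HDM libraries. Replicate 1 was below replicate 2 for Bpifa1 (120.5 and 653 normalized counts), Scgb3a1 (37.0 and 274) and Ltf (67.5 and 285), which stood at 649.9 and 1115, 359 and 264, and 292 and 543 in WT PBS. Of the genes of the mucous response and Fn1, Clca1, Chil4 and Fcgbp were also lower in replicate 1, Chia1 was higher there (321 and 206), as was Chil3 (31.9 and 12.5), which did not pass, and Retnla and Fn1 differed little between the 2 libraries. Bpifa1, Scgb3a1 and Ltf were among the genes called lower without cKO HDM replicate 2, and their spread was not tested.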
